A study of Danio rerio with 6 samples.

Results

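Asp-GTC is the cytoplasmic transfer RNA that carries aspartate, named by its amino acid and its anticodon. Its reads were taken as all sequences that the authors' table of cytoplasmic tRNA reads assigns to aspartate, all of them under the anticodon GTC. There were 221 such sequences among the 3021 distinct read sequences in that table, and all 221 are described here. The study sequenced RNA of tRNA size from zebrafish, Danio rerio, in 6 stages from egg to embryo, with 1 library for each. All groups were wild type and of the TU strain, and none had a further treatment or allele in the labels. The groups were mature egg, the fertilised embryo at 1cell, the cleaving embryo at 256cell, the blastula at sphere, the early gastrula at shield, and the embryo at 24hpf (24 hours after fertilisation). Each library pooled about 50 to 100 eggs or embryos, which had been freed of the chorion with Pronase. RNA of 60 to 120 nt was cut from a gel, or of 60 to 100 nt by the sample descriptions, and was deacylated, end-repaired with T4 PNK and treated with a mixture of ALKB proteins. ALKB enzymes remove methyl groups from the base-pairing face of some bases, which otherwise stop or mislead reverse transcriptase.

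Aspartate tRNA reads the codons GAC and GAU. Like all eukaryotic tRNAs, it is made as a longer precursor whose 5′ leader and 3′ trailer are removed, after which an enzyme adds the bases CCA that hold the amino acid. In other animals, mouse and human among them, the first anticodon base is changed to queuosine and further modified with a sugar, and the enzyme DNMT2 methylates the cytosine at position 38, beside the anticodon. In human cells TRMT10B methylates the adenosine at position 9 of this tRNA.

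The sequences are shown first, because the stages differed mainly in where the reads began and ended. The read that covered the whole tRNA was 75 nt long, and positions are counted from 1 at its 5′ end. In that read the anticodon lies at positions 34 to 36, the body ends at position 72, and the tail CCA is at positions 73 to 75. The bases GTC stand at the anticodon positions in 212 of the 221 sequences. In the complete read, in 3 of the 8 most abundant reads and in a read without its 3′ end, which were chosen to show these ends, capitals mark the anticodon and the tail bases present. Reads are numbered by their mean abundance over the 6 libraries.
Asp read 8, complete: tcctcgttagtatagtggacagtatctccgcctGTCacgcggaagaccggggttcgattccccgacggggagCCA
Asp read 1, positions 8 to 73: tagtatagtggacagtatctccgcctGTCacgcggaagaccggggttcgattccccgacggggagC
Asp read 2, positions 13 to 73: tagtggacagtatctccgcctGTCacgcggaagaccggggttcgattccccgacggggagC
Asp read 7, positions 13 to 75: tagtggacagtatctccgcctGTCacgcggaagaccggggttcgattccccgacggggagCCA
Asp read 34, positions 1 to 63: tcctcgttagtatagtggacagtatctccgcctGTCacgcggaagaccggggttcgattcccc

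The libraries ranged from 3324546 to 7096801 reads. The cytoplasmic table accounted for 1877927 to 4770871 of these and Asp-GTC for 52305 to 168969. A stage with 1 library has no replicates, so no p-value for a stage is given, and intervals are exact 95% Clopper-Pearson or binomial intervals. They cover counting error alone, and since PCR reads without molecular identifiers, which the labels do not mention, are no separate molecules, the true error is larger. The table holds no read under 60 nt, so shorter pieces of this tRNA were not seen. Each of the 221 sequences had at least 35 reads at 1cell, whereas the lowest count in every other library was 0. The same bound of 35 reads at 1cell held for the listed sequences of all other amino acids except glycine. The list thus holds no aspartate sequence that was below this count at 1cell, whatever its level at other stages, and counts of rare sequences favour 1cell by construction. The labels of the stages could not be checked against marker genes in tables of tRNA reads. In RNA of whole embryos, fewer cells that hold a tRNA and less of it per cell cannot be told apart.

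The level of Asp-GTC was lowest in egg and highest at shield. It was 13060 RPM (reads per 1000000 reads of the library) in egg, 18276 and 15733 in 1cell and 256cell embryos, and 20958, 40117 and 21354 in embryos of sphere, shield and 24hpf. From low to high the order was egg, 256cell, 1cell, sphere, 24hpf and shield, and without replicates it cannot be said which neighbours in it differ. Each of the 3 later libraries lay above each of the 3 earlier ones, a pattern that 22.9% of the 35 anticodons compared showed in RPM. As a share of the listed cytoplasmic reads the level was 1.97% in egg (interval 1.95 to 1.98), against 4.32% and 2.79% at 1cell and 256cell and 3.93%, 5.48% (5.46 to 5.51) and 2.75% at sphere, shield and 24hpf. On this scale the earlier and later libraries overlapped, whereas 5.71% of the anticodons had a higher share in each later than in every earlier library. The 1cell library held the second highest share of Asp-GTC. Asp-GTC was the third most abundant anticodon in egg and the second most abundant, after His-GTG, in the other 5 libraries. Among reads other than His-GTG it made up 18.1% in egg, 23.5% at 1cell and 21.6% at 256cell, then 25.2% in sphere, 35.8% in shield and 25.0% in 24hpf embryos.

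From one stage to the next, the Asp-GTC share of cytoplasmic reads went up and down. Its log2 ratio was 1.13 from egg to 1cell, −0.63 from 1cell to 256cell, 0.50 from 256cell to sphere, 0.48 from sphere to shield and −0.99 from shield to 24hpf. His-GTG made up 81.7% (1cell) to 89.1% (egg) of the listed cytoplasmic reads, so these sizes also depend on its level. In RPM the same steps of Asp-GTC were 0.48, −0.22, 0.41, 0.94 and −0.91. The Asp-GTC share at shield was 2.79 times that in egg. The share at 24hpf was 1.40 times that in egg (log2 0.48, counting interval 0.47 to 0.50) and did not differ by as much as 2-fold, a size that 20% of the anticodons passed upwards and 42.9% downwards. That call turned with the scaling, since the log2 ratio was 1.23 with median-ratio and 1.74 with trimmed-mean scaling, and it was −0.66 in reads ending in CCA. The shares at 24hpf and at 256cell were nearly equal, with a log2 ratio of −0.02. The median log2 ratio of the 35 anticodons between 24hpf and egg was −0.66 in shares and −0.44 in RPM, and Asp-GTC lay 1.15 above that median, ninth from the top.

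The mean share of the 3 later stages was above that of the 3 earlier ones by 0.44 on the log2 scale. This value was 0.17 without egg, 0.20 without shield, 0.69 without 24hpf and 0.74 without 1cell, so those libraries set its size. An edgeR quasi-likelihood test that treated the stages as if they were replicates gave a log2 ratio of 1.27, with an unadjusted p of 0.0279 and a Benjamini-Hochberg adjusted p of 0.195 over the 35 anticodons. That test called 2.86% of the anticodons, and Asp-GTC was not among them. The mitochondrial aspartate tRNA, which is encoded in the mitochondrial genome, was measured in the same libraries. It had 49.0 RPM in egg and 70.2 and 105 at 1cell and 256cell, followed by 125 in sphere, 53.2 in shield and 19.5 in 24hpf embryos. The ratio of cytoplasmic to mitochondrial aspartate tRNA reads was therefore between 150 and 266 in the first 4 libraries, 754 at shield and 1094 at 24hpf.

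**Figure D1:**
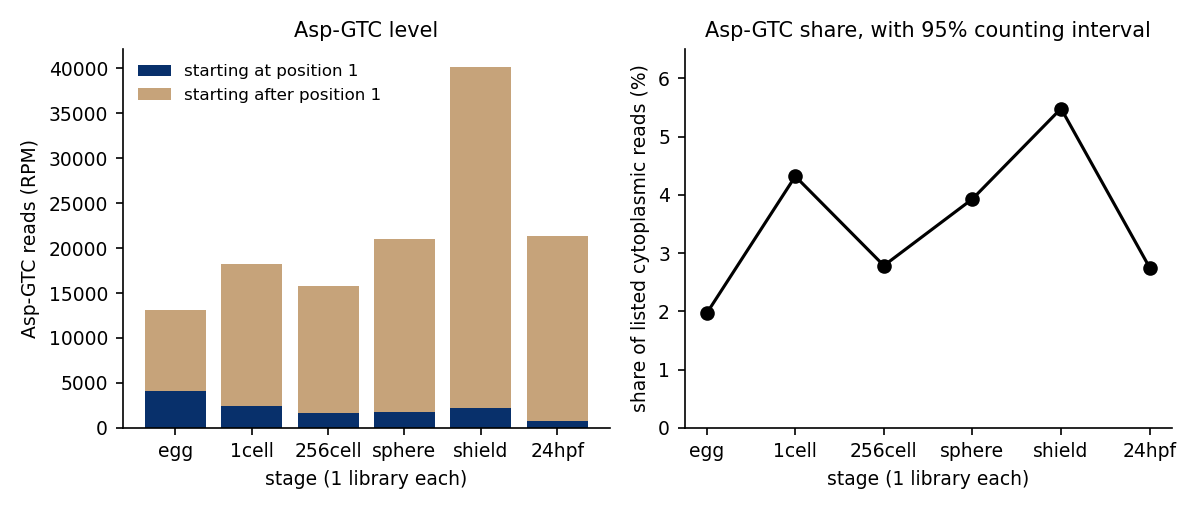
The left panel plots Asp-GTC reads in RPM (y axis) for each of the 6 libraries (x axis), split into reads that start at position 1 and reads that start after it. The right panel plots Asp-GTC as a percentage of the listed cytoplasmic reads, and its 95% counting intervals are smaller than the points. Reads that start at position 1 went from 4046 RPM in egg to 731 RPM at 24hpf, while the total stood highest at shield in both panels.

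The reads differed most at their 5′ ends. Reads that began at the first base of the tRNA made up 31.0% of the Asp-GTC reads in egg (interval 30.7 to 31.3), 13.3% and 10.2% in 1cell and 256cell embryos, and 8.25%, 5.52% and 3.42% (3.32 to 3.52) in embryos of sphere, shield and 24hpf. The part was lower at each stage than at the one before, and the largest step was that from egg to 1cell. Each of these stages is a single library, and the cause of the step was not tested. In RPM these reads had 4046 in egg, 2432 and 1606 in 1cell and 256cell embryos, and 1730, 2214 and 731 in embryos of sphere, shield and 24hpf. Reads that began after position 1 had 9014 RPM in egg, against 15843 and 14127 at 1cell and 256cell and 19228, 37904 and 20624 at sphere, shield and 24hpf. The high level at shield was thus made up almost entirely of reads that lacked the first bases. The 2 kinds of read also had their highest RPM in different libraries, egg for the one and shield for the other.

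Reads with an incomplete 5′ end began at few places. Few began at positions 2 to 6, and nearly all the others began between positions 7 and 14, with peaks at positions 8 and 13. Reads that began at position 8 made up 17.5% of the Asp-GTC reads in egg and 27.4% to 30.8% in the other 5 libraries. Those that began at position 13 made up 17.3% in egg and 18.0% to 21.7% elsewhere. Starts at position 12 went from 5.47% in egg to 11.9% at 24hpf, with 6.19% at 1cell, 7.90% at 256cell, 8.53% at sphere and 8.31% at shield. These are parts of all Asp-GTC reads, and reads from position 1, most frequent in egg, lower them most there. Asp read 2, from position 13, had 10044 reads beside 63973 that began after position 1 in egg. At 24hpf it had 17100 beside 126794. In this count Asp read 2 was more frequent in egg than at 24hpf. The place of the last starts is set by the table, since a read that begins after position 16 and reaches the end of the tail is under 60 nt. Whether a molecule behind a late start was itself short, or complete and copied in part, was not tested.

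**Figure D2:**
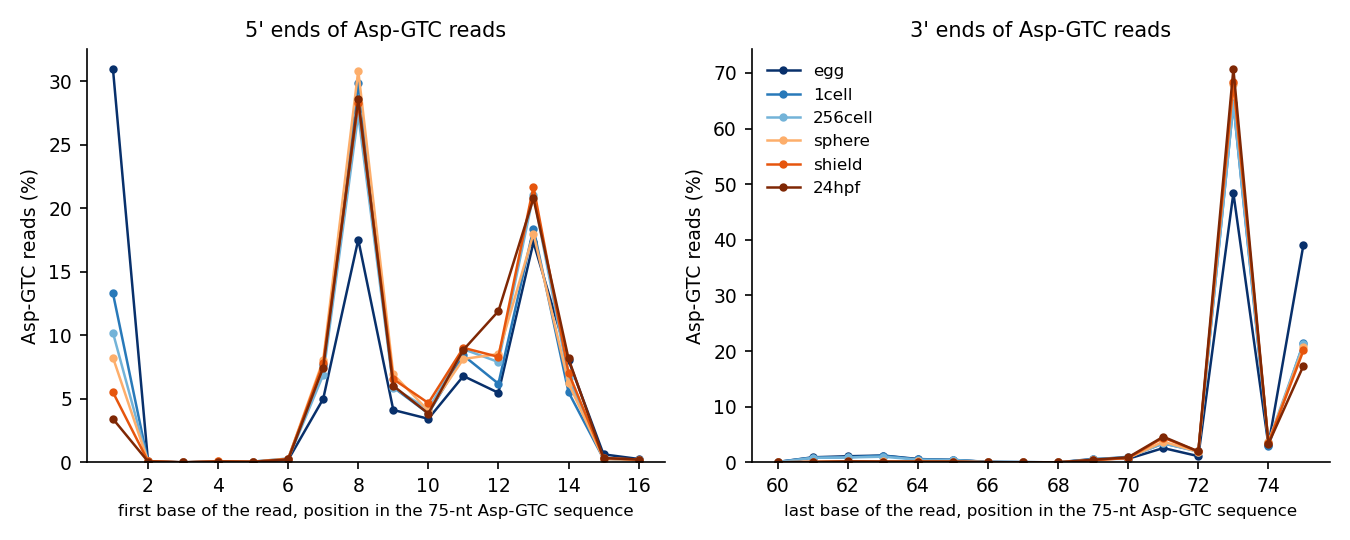
The left panel plots the percentage of Asp-GTC reads (y axis) by the position of the first base, and the right panel by the position of the last base (x axes, positions in the 75-nt tRNA), with 1 line per library. The egg library stands apart with 31.0% of reads at position 1 and 39.1% at the last base of the tail, while the peaks at positions 8, 13 and 73 are present in all 6 libraries.

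The complete read with the full tail and without any difference, Asp read 8, was the most abundant Asp-GTC sequence in egg and ranked eighth by its mean. It had 1748 RPM in egg, 820 at 1cell and 454 at 256cell, then 594 in sphere, 787 in shield and 246 in 24hpf embryos. Within the Asp-GTC reads its part went from 13.4% in egg to 1.15% at 24hpf, a log2 ratio of −3.53 (interval −3.62 to −3.46). All reads from position 1 to position 75, with or without a difference inside, made up 25.7% in egg and 8.78% and 6.20% at 1cell and 256cell, followed by 6.83% in sphere, 4.78% in shield and 2.60% in 24hpf embryos. The most abundant sequence on average, Asp read 1, went the other way. It had 1522 RPM in egg, 3839 and 2983 in 1cell and 256cell embryos, and 4558, 7665 and 4328 in embryos of sphere, shield and 24hpf. Its part of the Asp-GTC reads was 11.7% in egg and 20.3% at 24hpf.

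At the 3′ end most Asp-GTC reads stopped inside the tail. Reads with only the first C of the tail made up 48.4% in egg, against 64.5% and 64.5% at 1cell and 256cell and 68.0%, 68.3% and 70.7% at sphere, shield and 24hpf. Reads with the complete tail CCA made up 39.1% in egg (interval 38.8 to 39.5), 21.4% at 1cell and 21.4% at 256cell, then 20.7% in sphere, 20.1% in shield and 17.4% in 24hpf embryos (17.2 to 17.6). Egg stood apart from the other 5 libraries in both. A tail of CC was found in 3.02% to 3.72% of reads, and a complete body without a tail in 1.11% to 2.02%. Of the 35 anticodons, 40% had a lower CCA-ending part at 24hpf than in egg. For many of the others no lower part was possible, and the 40% counts them in its base. All listed reads ended in CCA for Cys-GCA, His-ATG, Leu-AAG, Leu-CAA, Leu-TAG, Pro-AGG, Ser-TGA, Thr-CGT, Thr-TGT and Trp-CCA. None did for Lys-TTT and Met-CAT. A lower part was thus more common among the anticodons in which it was possible. Over all other reads without His-GTG the CCA-ending part was 66.4% in egg and 48.4% at 24hpf.

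The difference in CCA endings went together with the difference in 5′ ends. Among reads that began at position 1, the complete tail was on 83.0% in egg and 66.0% and 60.8% at 1cell and 256cell, followed by 82.8% in sphere, 86.6% in shield and 76.1% in 24hpf embryos. Among reads that began later, it was on 19.5% in egg, 14.6% and 16.9% in 1cell and 256cell embryos, and 15.1%, 16.2% and 15.3% in embryos of sphere, shield and 24hpf. In the same reads the single C was the most common tail, with 69.8% to 74.2% in the 6 libraries, whereas it was on 0.721% to 5.93% of the reads from position 1. Over all Asp-GTC reads the CCA-ending part at 24hpf differed from that in egg by −21.8 percentage points, and among reads that began after position 1 it differed by −4.16 points. The table holds no read under 60 nt, so reads that began later were listed only if they ended nearer the tail. Reads from position 1 and later reads are therefore compared over unlike ranges of 3′ ends.

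**Figure D3:**
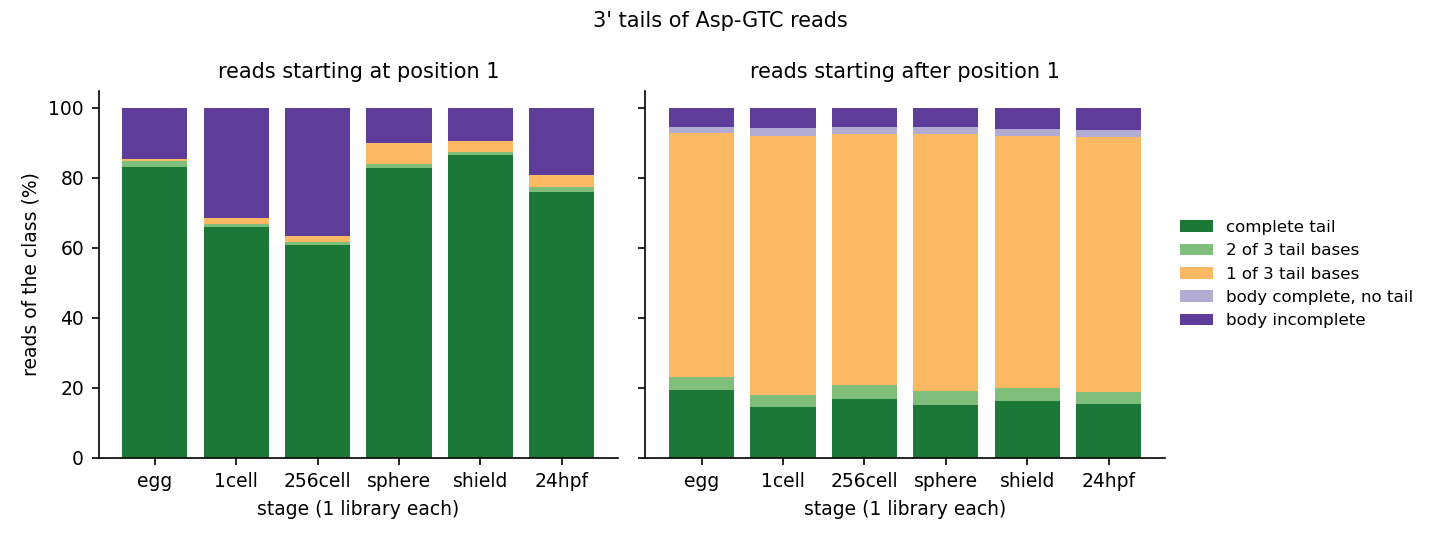
Both panels plot the percentage of Asp-GTC reads (y axis) with each kind of 3′ end in the 6 libraries (x axis), on the left for reads that start at position 1 and on the right for reads that start later. The complete tail is on 60.8% to 86.6% of the former and on 14.6% to 19.5% of the latter, and reads with an incomplete body are most frequent on the left at 1cell and 256cell.

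A small group of reads had an intact 5′ end and lacked the 3′ end of the body. They began at position 1, ended at or before position 67 and comprised 10 sequences, with Asp read 34 the most abundant. They had 577 RPM in egg, against 756 and 586 at 1cell and 256cell and 171, 203 and 137 at sphere, shield and 24hpf. The 3 earlier libraries thus all lay above the 3 later ones. The group was singled out after the values were seen, and how often other groups of reads show this order was not counted. As a part of the Asp-GTC reads they were 4.42%, 4.14% and 3.72% in the earlier libraries and 0.816%, 0.505% and 0.644% in the later ones, in stage order. Among reads from position 1 they made up 14.3% in egg, 31.1% at 1cell and 36.5% at 256cell, then 9.89% in sphere, 9.16% in shield and 18.8% in 24hpf embryos. Asp read 34 itself had 156 RPM in egg and 210 and 155 at 1cell and 256cell, followed by 33.9 in sphere, 35.6 in shield and 29.8 in 24hpf embryos.

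The mean length of the Asp-GTC reads was 66.4 nt in egg, 65.0 and 64.5 in 1cell and 256cell embryos, and 64.8, 64.4 and 64.0 in embryos of sphere, shield and 24hpf, with an SD over reads of 2.98 to 5.29 nt. Reads not ending in CCA had almost the same mean length at both ends of the series, 63.4 nt in egg and 63.5 nt at 24hpf. Reads ending in CCA were 71.1 nt long on average in egg and 66.2 nt at 24hpf. Reads of at least 70 nt made up 26.9% in egg, against 9.48% and 6.79% at 1cell and 256cell and 7.83%, 5.39% and 3.09% at sphere, shield and 24hpf. In the other reads without His-GTG that part stayed between 1.97% and 2.94% in the 6 libraries. Asp-GTC supplied 67.5% of all cytoplasmic reads of at least 70 nt in egg, 46.3% to 52.9% at the next 4 stages and 27.8% at 24hpf.

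Reads of at least 70 nt were found in egg for 17 anticodons, and in 29.4% of them that part was at 24hpf no more than 0.5 times its value in egg. Asp-GTC was among these, with a part 8.69 times as large in egg as at 24hpf. The others were Gln-CTG, with 0.229% in egg and 0.0516% at 24hpf, Gly-GCC, with 3.16% and 0.898%, Pro-CGG, with 3.56% and 0.662%, and Ser-AGA, with 1.86% in egg. Ser-AGA had no such read among its 273 reads at 24hpf, which allows a part of up to 1.10%, and Pro-CGG had only 302 reads there. The anticodons nearest to Asp-GTC in egg by this part were not lower at 24hpf. Cys-GCA had 21.9% in egg and 24.1% at 24hpf, and Ser-GCT had 11.4% and 26.9%.

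**Figure D4:**
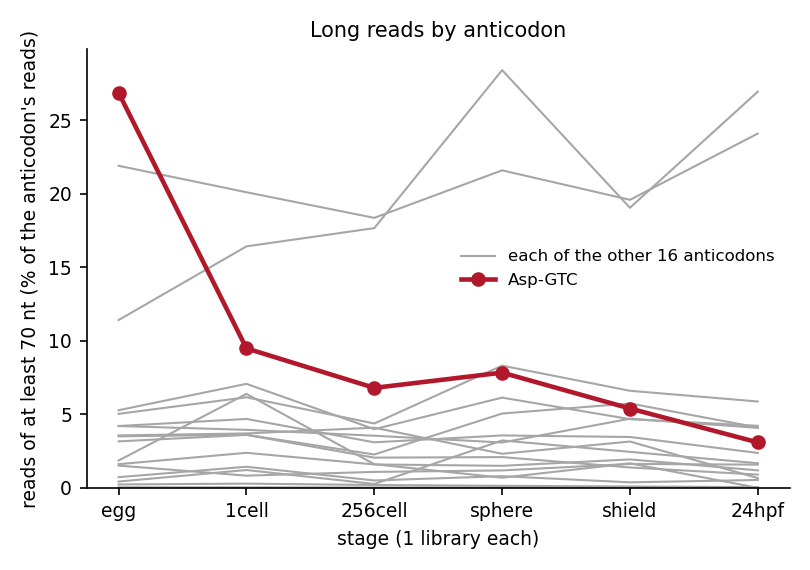
Reads of at least 70 nt as a percentage of the reads of an anticodon (y axis) in the 6 libraries (x axis), for the 17 anticodons that had such reads in egg. Asp-GTC goes from 26.9% in egg to 3.09% at 24hpf, and 2 of the grey lines, Cys-GCA and Ser-GCT, are above it from 1cell on. Other grey lines pass it later, and at 24hpf Glu-TTC, iMet-CAT, Pro-GGG and Val-TAC are above it as well.

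Single sequences differed by the same division of 5′ ends, which was made after their values were seen. Of the 221 sequences, 132 reached 10 RPM on average and were compared between 24hpf and egg within the Asp-GTC reads. At least 2-fold higher at 24hpf were 11 of them (8.33%) and at least 2-fold lower were 32 (24.2%). Over the 1781 cytoplasmic sequences taken as background, each compared within its own anticodon, the shares were 9.49% and 40.6%. Of the 29 Asp-GTC sequences that began at position 1, 28 were at least 2-fold lower, with a median log2 ratio of −2.79. Of the 103 that began later, 4 were, with a median of 0.35. Reads from position 1 went from 31.0% of the Asp-GTC reads in egg to 3.42% at 24hpf. The ratios are taken within the same reads, so this split restates that difference and is no separate result. The 5 lowest all began at position 1 and ended in CCA, and none of them matched the complete read exactly. Asp read 62, the lowest of those with a substitution, had 131 RPM in egg and 33.5 and 15.6 at 1cell and 256cell, followed by 23.4 in sphere, 26.6 in shield and 6.99 in 24hpf embryos. The 5 highest began at positions 9, 11 or 12 and ended at positions 71 to 73. Asp read 27 had the highest mean of these, with 38.7 RPM in egg, 87.6 and 92.6 in 1cell and 256cell embryos, and 128, 230.3 and 169 in embryos of sphere, shield and 24hpf.

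Most reads matched the complete read base for base. Exact matches made up 64 of the 221 sequences and 79.4% of the reads in egg, with 87.9% at 24hpf. A further 140 sequences carried substitutions, 127 of them a single one, and 17 lacked a stretch of bases. As placed here, 37 substitutions at 34 positions were found, and 9 of them reached 1% of the reads covering their position in at least 1 library. Among these is C2T, carried by Asp read 99 alone, which a start at position 1 with 1 missing C describes as well. A substitution is written with the base of the complete read, its position and the base of the variant read. For 7 differences that were frequent or varied between stages, the most abundant sequence with no other difference is printed, with the differing bases in capitals. The pair C20A and C29T is counted here as a single difference.
Asp read 14, G70T: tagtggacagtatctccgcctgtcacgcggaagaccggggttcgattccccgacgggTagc
Asp read 18, A9T: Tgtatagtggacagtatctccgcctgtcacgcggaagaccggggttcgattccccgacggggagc
Asp read 20, A9G: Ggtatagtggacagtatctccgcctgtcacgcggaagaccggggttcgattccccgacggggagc
Asp read 66, C29T: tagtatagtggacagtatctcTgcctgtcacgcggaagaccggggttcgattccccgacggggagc
Asp read 168, C20A and C29T: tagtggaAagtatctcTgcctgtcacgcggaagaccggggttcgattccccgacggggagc
Asp read 31, C63T: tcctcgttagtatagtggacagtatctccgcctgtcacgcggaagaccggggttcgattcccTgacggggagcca
Asp read 62, C48T: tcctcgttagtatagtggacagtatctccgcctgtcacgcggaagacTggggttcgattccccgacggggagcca

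By their part of the covering reads, substitutions as placed here were most frequent at position 9 in all 6 libraries. Reads in which the position is missing were not counted in this ranking. Position 70 followed in all but egg, where position 6 came second. Position 9 is the adenosine that TRMT10B methylates in human cells. A differing base was placed there in 5.88% of the covering reads in egg and 5.18% and 5.89% at 1cell and 256cell. The part was 6.67% in sphere, 9.42% in shield and 7.48% in 24hpf embryos. In all covering reads the 3 later libraries lay above the 3 earlier ones, and positions 2 and 3 showed the same order. Reads from position 1 numbered 28711 in egg, where 51317 reads covered position 9, and 10192 at sphere, where 66667 did. They carried a differing base there less often than later reads, and so lower the part most in egg. Among the covering reads that began after position 1, egg lay above sphere and 24hpf and below shield. As placed, between 42.6% and 57.4% of the reads with A9T or A9G began at position 9, so that the differing base was their first. For A9T reads that did not begin at position 1, a start 1 base earlier with position 9 missing describes the sequence as well. A9G alone was in 2.48% to 4.10% of the covering reads, and for it egg (3.02%) lay above sphere (2.90%). Among reads that began before position 9 the part of all substitutions placed there was 3.53% in egg and 2.67% and 2.85% at 1cell and 256cell. It was 3.30%, 5.19% and 4.12% at sphere, shield and 24hpf, and in this count egg lay above sphere. G70T, the last G of a run of G near the 3′ end, was in 2.84% of the covering reads in egg (interval 2.73 to 2.95), 4.11% and 4.42% in 1cell and 256cell embryos, and 3.64%, 3.87% and 4.12% in embryos of sphere, shield and 24hpf. No listed sequence with G70T began at position 1, so reads from position 1, most frequent in egg, only lower this part. Beside all reads that began after position 1, those with G70T numbered 2500 and 63973 in egg, 2212 and 46967 at 256cell, and 4434 and 113304 at sphere. In this count egg and sphere were close. At position 6, which mostly reads from position 1 cover, G6C and G6T together were in 3.12% in egg, against 0.764% and 2.02% at 1cell and 256cell and 3.07%, 3.79% and 2.24% at sphere, shield and 24hpf.

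C29T, in the stem that carries the anticodon, was in 0.817% of the covering reads in egg, 3.37% at 1cell (interval 3.27 to 3.48), 1.32% at 256cell, 1.27% in sphere, 0.980% in shield and 0.810% in 24hpf embryos. The 1cell value was the highest, but it was favoured by the bound of 35 reads at 1cell, which many of the 44 sequences with C29T passed in that library alone or in few others. In the 4 sequences with C29T that had at least 35 reads in every library, the part among the 101 such Asp-GTC sequences was 0.842% at 1cell and 0.214% to 0.464% elsewhere. A second difference, C20A, was found in 14 sequences, 12 of which also carried C29T. It had 3 reads in egg and 1009 and 10 at 1cell and 256cell, followed by 1 in sphere, 3 in shield and 222 in 24hpf embryos, or 166 RPM at 1cell and 36.1 RPM at 24hpf. No sequence with C20A reached 35 reads in every library. These sequences are in the list through their counts at 1cell, so that their being frequent there is no finding, and variants frequent at other stages alone were not seen. Without the reads that also carried C20A, C29T was on 2.54% of the Asp-GTC reads at 1cell and on 0.650% to 1.30% elsewhere. The bound of 35 reads at 1cell favours that library in this count as well.

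As parts of all covering reads, C63T and C48T were most frequent in egg. C63T was in 2.24% of the covering reads in egg, 0.560% and 0.724% in 1cell and 256cell embryos, and 0.936%, 0.511% and 0.377% in embryos of sphere, shield and 24hpf, and 75.3% to 92.1% of the reads that carried it began at position 1. C48T was in 1.08% in egg, 0.361% at 1cell and 0.235% at 256cell, then 0.321% in sphere, 0.202% in shield and 0.159% in 24hpf embryos, and in egg 93.2% of these reads began at position 1. Egg also held the largest part of reads from position 1. Asp read 31, with C63T, had 1603 reads beside 28711 from position 1 in egg, and 741 beside 10192 at sphere. Asp read 62, with C48T, had 933 and 138. Beside the reads from position 1, Asp read 31 was thus less frequent in egg than at sphere, whereas Asp read 62 was more frequent. C38T, at the cytosine that DNMT2 methylates in other animals, was in 0.161% of the covering reads in egg and 0.344% and 0.260% at 1cell and 256cell, followed by 0.346% in sphere, 0.333% in shield and 0.181% in 24hpf embryos. No listed sequence with C38T began at position 1. Beside all reads that began after position 1, those with C38T numbered 149 and 63973 in egg, and 237 and 126794 at 24hpf. In this count egg lay above 24hpf. The labels' protocol names no bisulfite step, and these values are not a measure of methylation. At the anticodon G34A was in 0.0366% to 0.509% of the covering reads and C36T in 0.0160% to 0.0650%.

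**Figure D5:**
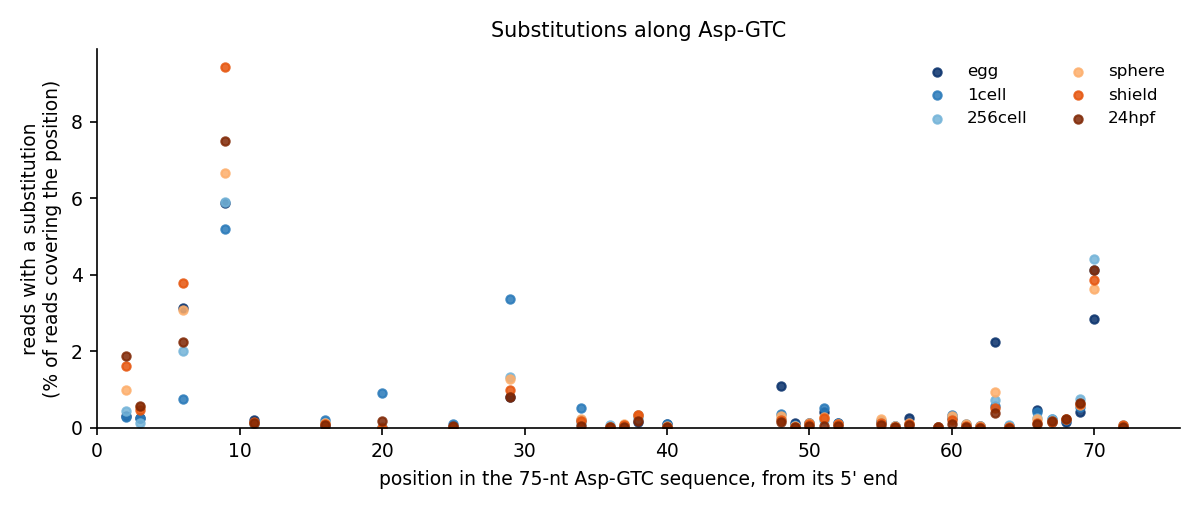
Reads with a substitution as a percentage of the reads that cover the position (y axis) along the 75-nt tRNA (x axis), with 1 point per library. Positions 9 and 70 are high in all 6 libraries, and position 29 is highest at 1cell with 3.37%, the library that sets which sequences are listed. Positions 48 and 63 are highest in egg with 1.08% and 2.24%, the library with the largest part of reads from position 1.

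Another group of reads from position 1 lacked a few bases in the stretch from position 4 to position 9 and was otherwise complete. It comprised 8 sequences, led by Asp read 25, which lacked 4 bases and is printed with the bases on either side of the gap in capitals. The gap can be placed at positions 6 to 9 or shifted by 1 or 2 bases without changing the sequence.
Asp read 25: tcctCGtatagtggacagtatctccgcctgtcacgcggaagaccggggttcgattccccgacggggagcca
Asp read 25 had 304 RPM in egg and 46.1 and 62.3 at 1cell and 256cell, followed by 110 in sphere, 204 in shield and 51.9 in 24hpf embryos. All 8 together made up 5.29% of the Asp-GTC reads in egg, 0.828% and 1.14% in 1cell and 256cell embryos, and 1.32%, 1.10% and 0.529% in embryos of sphere, shield and 24hpf. Among the reads from position 1 the part was 17.1% in egg, 6.22% and 11.2% in 1cell and 256cell embryos, and 16.1%, 20.0% and 15.5% in embryos of sphere, shield and 24hpf, with its lowest value at 1cell. For Asp reads 42 and 82, 2 of the 8, a start at position 4 with a substitution describes the sequence as well as a start at position 1 with missing bases.

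Joining sequences that overlapped exactly over at least 50 nt gave 25 families. A read that does not cover a differing base near an end can join its carriers to the leading family. This was so for G70T, A9T, A9G and C63T, so the part of that family is not the part of exact matches. The leading one, with 132 sequences and without a shared substitution, held 95.5% of the Asp-GTC reads in egg and 93.1% and 96.6% at 1cell and 256cell, followed by 96.1% in sphere, 97.0% in shield and 98.2% in 24hpf embryos. The family led by Asp read 66 with C29T held 2.54% at 1cell, the library whose rare sequences the list favours. Among sequences with at least 35 reads in every library the leading family held 97.8% in egg, 97.8% at 1cell and 98.6% to 99.4% in the other 4 libraries. The families that followed were led by reads with C48T, C38T, C60T and G51T. All 221 sequences had reads at 1cell, as the bound requires, and 208 to 220 had reads in the other libraries.

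Among the other anticodons, Lys-CTT had the pattern over the 6 libraries most like that of Asp-GTC. The root-mean-square difference of their mean-centred log2 shares was 0.26, and it was 0.32 for Glu-TTC and 0.43 for Arg-ACG. All 4 were lowest in egg. Glutamate tRNAs carry the other acidic amino acid, and their log2 ratios of share between 24hpf and egg were 0.69 for Glu-TTC and 1.35 for Glu-CTC, beside 0.48 for Asp-GTC. The median of these 3 was 0.69. The other tRNAs whose anticodon can hold queuosine were at −1.72 for Asn-GTT, −0.0022 for His-GTG and −1.96 for Tyr-GTA, whose mean lay under 10 RPM, and the median of the 4 was −0.86. The other substrates known for DNMT2 were at −1.44 for Gly-GCC and −0.63 for Val-AAC, and the median of these 3 was −0.63. Over all 35 anticodons compared, the median was −0.66.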

How the data were processed

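The authors deposited RPM values per read sequence for cytoplasmic tRNAs and per tRNA for mitochondrial ones. Per the submitters' processing notes, cutadapt 3.4, Bowtie2 2.4.2 and the build GRCz11 were used. How these tools were set, how a read came to be listed and how reads that fit several genes were handled is not stated in the sources used here. Dividing the deposited RPM by the value of 1 read made 100% of the values whole within 0.01 reads, which gave read counts. The lowest total of a listed sequence was 19 reads, and each Asp-GTC sequence had at least 35 reads at 1cell.

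Asp-GTC sequences were placed without gaps on the complete read with up to 3 substitutions, or with 1 missing stretch of up to 10 bases. Ratios used a pseudocount of 1 RPM and, for comparisons between anticodons, a mean of at least 10 RPM, which kept 35 of 38. On the log2(value + pseudocount) scale the difference of rare sequences is understated. The floor of a library is 3 reads, 0.423 to 0.902 RPM. Named sequences were the 8 most abundant, the 5 highest and 5 lowest between 24hpf and egg, the leading reads of the 6 largest families and the longest; reads printed or singled out beyond these were chosen after their values were seen. Members and lists were chosen with earlier results of these data known. Python 3.11.15 with scipy 1.17.1 was used, with edgeR 4.0.16 in R 4.3.3 for the recovered read counts summed per anticodon. The recovery of read counts, the placement of sequences, the joining of families and the edgeR test were run on simulated data. The intervals were not. The libraries simulated for edgeR were replicates, which the stages are not.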

Additional observations from a re-analysis of the deposited data

How the results depend on the processing

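No paired analysis was possible because each stage has 1 library and the labels give no replicate numbers. The Asp-GTC share at 24hpf against egg (log2 0.48) was 0.71 in RPM, 0.47 without His-GTG, 1.23 with median-ratio scaling, 1.74 with trimmed-mean scaling over the anticodons, 0.69 in reads not ending in CCA and −0.66 in reads ending in CCA. Against 256cell it was −0.0174, and against 1cell −0.65. The mean of later against earlier stages (0.44) was 0.75, 0.43, 0.96 and 1.14 under those 4 scalings, 0.0307 in reads ending in CCA, 0.41 in the others and 1.27 with edgeR, and it ranged from 0.17 to 0.74 when 1 library was left out. The change in the CCA-ending part (−21.8 points) was −24.4 with CC counted too, −2.80 in reads of 60 to 67 nt, −3.99 against 256cell, −4.03 against 1cell and −4.16 in reads that start after position 1, an alternative chosen after seeing the data. The change in mean length (−2.36 nt) was −4.81 in reads ending in CCA, 0.187 in the others, −0.473 against 256cell and −0.951 against 1cell. The leading family (2.67 points higher at 24hpf) was 8.15 higher in reads ending in CCA, 1.53 higher against 256cell and 5.07 higher against 1cell. Of 132 sequences, the 11 at least 2-fold higher became 3 with a pseudocount of 10 RPM, 36 as shares of cytoplasmic reads and 0 against 256cell. With a minimum of 1 RPM they were 22 of 221 sequences, and with 100 RPM 3 of 35. The 32 lower ones of the 132 became 62 of the 221 with 1 RPM and 4 of the 35 with 100 RPM. The background over all cytoplasmic sequences was not counted for these alternatives. The part starting at position 1, a result added after the data were seen (−27.6 points), changed by −50.7 in reads ending in CCA, −6.78 against 256cell, −9.89 against 1cell and −26.2 with reads lacking bases 4 to 6 taken to start at position 4. The cause of these shifts was not tested. The egg library thus sets most of the size of the differences in read ends, and their direction held against 256cell and 1cell as well. Limited to sequences with at least 35 reads in every library, an alternative chosen after seeing the data, the share ratio was 0.51, later against earlier stages 0.459, the CCA-ending part −20.5 points, the part starting at position 1 −26.0 points, mean length −2.18 nt and the leading family 1.60 points higher, with 7 sequences higher and 20 lower. The 7 and the 20 were among 101 sequences. Rare variants are limited by the bound of 35 reads at 1cell rather than by depth alone.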
